A study of Mus musculus with 3 samples.

Results

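The trypsinogen genes of the mouse are a family of digestive protease precursors on chromosome 6. The genes followed were 10 of the 31053 genes in the count tables: *Prss1*, *Prss2*, *Prss3*, *Try4*, *Try5*, *Try10*, *Gm10334*, *Gm5771*, *Gm2663* and *1810009J06Rik*, chosen by symbol and each found in the tables. They were read in 3 pancreatic tumours, with 1 library of single cells per tumour. All tumours carry one description: tdTomato-positive epithelial cells of Msi2-Myc; R26-LSL-tdTomato mice, taken 5 weeks after tamoxifen, were placed in the pancreas of NSG mice, and EpCAM-positive cells were sorted at end stage. The series title names the alleles as Musashi2-CreER-MycT58A, so tamoxifen acts in cells that use the Msi2 promoter, and ASCP, PDAC and ACC tumours, but no label assigns a type to a tumour. The tumours therefore form 1 group, and the number of donor mice, ages and sexes are not given in the sources used here. The sort used EpCAM, which the pancreatic epithelium of the NSG host also carries, so acinar cells of the host and acinar-type cells of the graft cannot be told apart.

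Trypsinogens are made by pancreatic acinar cells, stored in zymogen granules and released into the gut, where enteropeptidase cuts off a short activation peptide. Active trypsin then activates the other pancreatic zymogens and further trypsinogen. Acinar cells carry guards against trypsin that forms too early: the inhibitor Spink1 blocks it, and chymotrypsin C and cathepsin L degrade it or its precursor, whereas cathepsin B can activate trypsinogen inside the cell.

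The 10 genes lie between bases 40964754 and 41525079 of chromosome 6 (mm10), 6 of them on the plus and 4 on the minus strand. *Prss2*, the anionic trypsin precursor, spans 41521787 to 41525079, *Try4* 41302269 to 41305532 on the same strand, and *Try5* 41311233 to 41316841 on the opposite strand. All 10 are annotated as protein coding. Reads came from the 3' end, so the likeness of the ends of these transcripts decides how well reads can be assigned. Within the last 300 bases, no stretch of 90 bases of *Prss2* occurred in a transcript of another gene, and 7.11% of those of *Try4* and of *Try5* did, each in the other gene. The share was 22.3% for *Try10*, 28.9% for *Prss1* and *Gm10334*, 48.8% for *Gm5771*, 55.0% for *Prss3* and 65.4% for both *Gm2663* and *1810009J06Rik*. How reads that match several genes were treated is not given here, so the levels of these last 7 genes are uncertain. Each captured molecule was counted 1 time whatever its length, so levels of different genes are set side by side without a length correction. At 50 bases the shares were higher, at 13.1% for *Prss2*, 44.6% for *Try4* and 34.7% for *Try5*.

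Start regions of 4 members are shown because these members were higher in acinar-gated cells, as the fit given further on shows. They run from 250 bases before to 50 after the RefSeq start (GRCm38.p6), in the direction of the gene. *Prss2* (chr6:41521526-41521825, plus strand) and *Try4* (chr6:41302022-41302321, plus strand) are the most abundant members with an entry, *Prss1* (chr6:41458680-41458979, plus strand) is a low member of the same gene block, and *Gm2663* (chr6:40999430-40999729, minus strand) belongs to the distant pair. Capitals mark CACCTG, an E-box of the kind that the acinar factor PTF1 binds, TTCCCA, the core bound by its RBPJ or RBPJL subunit, and TATAAA, each on either strand.
Prss2: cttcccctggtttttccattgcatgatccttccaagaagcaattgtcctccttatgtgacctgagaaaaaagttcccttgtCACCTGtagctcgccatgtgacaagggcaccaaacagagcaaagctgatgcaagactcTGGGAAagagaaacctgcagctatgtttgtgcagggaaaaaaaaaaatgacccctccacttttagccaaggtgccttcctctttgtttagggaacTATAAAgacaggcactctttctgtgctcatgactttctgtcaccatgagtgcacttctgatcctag
Try4: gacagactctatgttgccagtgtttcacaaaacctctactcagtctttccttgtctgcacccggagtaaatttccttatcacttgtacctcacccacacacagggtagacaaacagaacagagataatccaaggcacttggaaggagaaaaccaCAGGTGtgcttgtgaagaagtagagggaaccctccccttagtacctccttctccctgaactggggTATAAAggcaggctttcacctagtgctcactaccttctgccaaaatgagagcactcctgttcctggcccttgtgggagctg
Prss1: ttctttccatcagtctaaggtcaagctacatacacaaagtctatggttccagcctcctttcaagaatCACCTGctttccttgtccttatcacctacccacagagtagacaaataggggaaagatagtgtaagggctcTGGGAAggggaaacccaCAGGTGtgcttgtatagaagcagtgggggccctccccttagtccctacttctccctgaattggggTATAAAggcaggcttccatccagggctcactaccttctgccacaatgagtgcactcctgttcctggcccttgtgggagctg
Gm2663: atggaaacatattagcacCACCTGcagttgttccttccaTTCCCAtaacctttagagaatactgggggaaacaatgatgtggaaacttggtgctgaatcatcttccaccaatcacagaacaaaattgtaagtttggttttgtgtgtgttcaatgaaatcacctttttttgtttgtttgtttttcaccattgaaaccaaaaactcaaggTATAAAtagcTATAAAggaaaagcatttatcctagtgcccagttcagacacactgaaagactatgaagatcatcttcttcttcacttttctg
Of the 7 members with a start region in the table, 7 held CACCTG or its reverse complement, against 20.3% of 32544 mouse start regions of the same length. TATAAA was in 7 of 7, against 13.6%, and TTCCCA in 4 of 7, against 25.4%. These are letter matches in related copies and say nothing about binding. The start regions of *Prss1* and *Gm5771* were 85.6% identical and those of *Prss3* and *Gm10334* 86.4%, while *Prss2* and *Try4* shared 61.0%. *Try5*, *Try10* and *1810009J06Rik* had no entry.

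Barcodes were kept as cells with 1000 or more UMIs (unique molecular identifiers, 1 per captured RNA), 500 or more genes, at most 20% mitochondrial UMIs and 60% or more of the barcode's UMIs over the 3 libraries in its own. This left 1431, 253 and 2804 cells in tumours 1, 2 and 3. The libraries share barcodes: all 1877, 641 and 3494 barcodes that reached 1000 UMIs were also present, at 10 UMIs or above, in the other libraries. The last criterion removed 122, 258 and 28 barcodes, or 50.5% of those of tumour 2. By its 60% limit no barcode can be kept in 2 libraries. The tables held 11502184, 9737397 and 16521484 UMIs, and the median cell 1621, 1333 and 1605.5. The background was read from barcodes of 10 to 100 UMIs, too small to be cells. A cell was acinar-gated if *Ctrb1* and *Clps*, the chymotrypsinogen and colipase genes, had 3 or more UMIs together and a share of its UMIs 2 times or more that in the small barcodes. Ductal-gated cells passed the same limit for *Tff1* and *Lgals4* only, squamous-gated cells passed it for the keratins *Krt5* and *Krt14*, and ungated cells passed none. The gates gave 257, 36 and 835 acinar-gated, 403, 114 and 363 ductal-gated, 2, 3 and 97 squamous-gated and 762, 94 and 1427 ungated cells in tumours 1, 2 and 3, besides 7, 6 and 82 double-gated cells that passed the acinar and ductal limits. Markers that took no part in the gates went with the names. The acinar check list of 12 genes stood at 8779, 7623 and 10990.1 CPM (UMIs scaled to a total of 1000000) in acinar-gated cells, against 407, 784 and 1382 CPM in ductal-gated cells, and the ductal list of 10 genes at 1582, 2066 and 2657 against 9101, 7216 and 10247 CPM. In acinar-gated cells the fibroblast, lymphoid, endocrine, myeloid and endothelial lists lay between 0 and 7.12 CPM. Squamous check genes had 149, 116 and 300.3 CPM there, against 250, 266 and 318 CPM in small barcodes.

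Trypsinogen RNA was higher in acinar-gated than in ductal-gated cells of each tumour. Summed over the 10 genes it stood at 6811 CPM in tumour 1, 2211 CPM in tumour 2 and 7726 CPM in tumour 3 in acinar-gated cells, against 303, 476 and 991 CPM in ductal-gated cells. The mean was 5583 ± 2955 CPM in acinar-gated and 590 ± 358 CPM in ductal-gated cells (SD, n = 3 tumours each). Acinar-gated cells were thus 22.5-fold, 4.65-fold and 7.79-fold above ductal-gated cells of the same tumour, with no overlap between the groups. These folds moved with the settings: over 5 other choices of gate, barcodes and depth they lay between 14.0 and 208 in tumour 1, 3.00 and 19.0 in tumour 2 and 4.67 and 39.6 in tumour 3, each above 1. The 19.0-fold value of tumour 2 came from leaving shared barcodes in, so it is not a reading of tumour 2 alone. With gates at 1 times the background, tumours 1 and 3 changed order, at 14.0-fold and 18.8-fold. The order of the tumours is therefore not fixed. Squamous-gated cells of tumour 3 held 434 CPM, with exact Poisson limits of 377 and 497, against 991 CPM in its ductal-gated cells. The 2 squamous-gated cells of tumour 1 had 1 trypsinogen UMI and the 3 of tumour 2 had 0 in 11266 UMIs, which tells little. Ungated cells stood at 840, 378 and 2047 CPM, and the 82 double-gated cells of tumour 3 at 4620 CPM. Intervals and limits on single libraries cover counting error only.

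**Figure D1:**
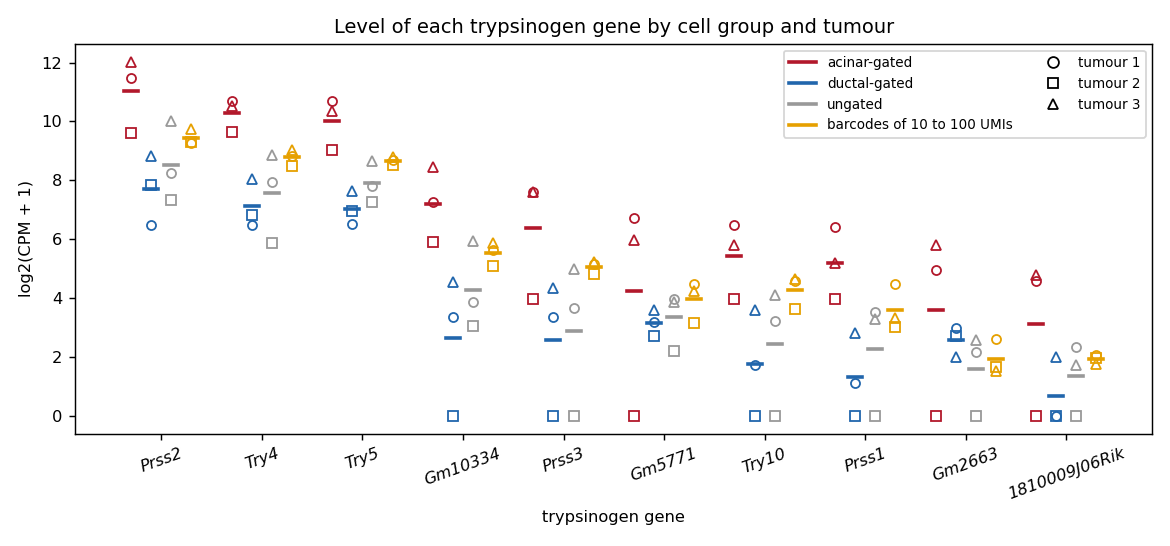
Level of each trypsinogen gene, as log2(CPM + 1), in acinar-gated, ductal-gated and ungated cells and in barcodes of 10 to 100 UMIs; each symbol is 1 tumour and bars are means of the log2 values over the 3 tumours. *Prss2*, *Try4* and *Try5* lie above the other genes in every group, and their acinar-gated values lie above the ductal-gated ones in all tumours, whereas symbols at 0 mark genes with no UMI, mostly in tumour 2.

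*Prss2* was the highest member in acinar-gated cells of tumours 1 and 3. It stood at 2827, 786 and 4176 CPM in acinar-gated cells of tumours 1, 2 and 3, against 88.6, 230 and 451 CPM in ductal-gated cells. The groups did not overlap, and its lowest acinar-gated value was that of tumour 2. Its log2 difference was 3.53 ± 0.26 (SE, adjusted p = 3.86e-19, edgeR's quasi-likelihood test on UMIs summed per tumour and class, tumour as a block, Benjamini-Hochberg over all genes), higher in 3 of 3 tumours. *Try4* stood at 1648, 800.1 and 1475 CPM, against 87.5, 112 and 264 CPM in ductal-gated cells (log2 3.21 ± 0.22, edgeR adjusted p = 2.17e-20). *Try5*, its neighbour on the other strand, stood at 1662, 524 and 1302 CPM against 89.8, 123 and 200.1 CPM (log2 3.19 ± 0.21, edgeR adjusted p = 2.24e-21). Both were higher in acinar-gated cells of each tumour, and their acinar-gated values in tumours 1 and 3 lay closer together than those of *Prss2*.

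The other 7 genes together made up 9.90%, 4.61% and 10.0% of trypsinogen UMIs in acinar-gated cells. *Gm10334*, the highest of them in tumours 2 and 3, stood at 153, 58.2 and 346 CPM in acinar-gated cells against 9.21, 0 and 22.1 CPM in ductal-gated cells (log2 4.07 ± 0.27, edgeR adjusted p = 2.63e-21). *Prss3* stood at 192, 14.5 and 193 CPM against 9.21, 0 and 19.1 CPM (log2 3.76 ± 0.28) and was above *Gm10334* in acinar-gated cells of tumour 1. In tumour 2 that is 1 UMI against 0, so the difference rests on tumours 1 and 3. *Gm5771*, at 103, 0 and 62.2 CPM against 8.06, 5.60 and 11.1 CPM, was not detected in the 68743 UMIs of the acinar-gated cells of tumour 2. *Prss1* stood at 83.6, 14.5 and 35.4 CPM against 1.15, 0 and 6.03 CPM, and *Try10* at 89.0, 14.5 and 55.2 CPM against 2.30, 0 and 11.1 CPM. Both were higher in tumour 1 than in tumour 3, the reverse of *Prss2* and *Gm10334*, which was not tested since a tumour is 1 sample. *Gm2663* and *1810009J06Rik*, the pair farthest from the rest, had 30.2, 0 and 54.7 CPM and 23.1, 0 and 26.4 CPM, against 6.91, 5.60 and 3.02 CPM and 0, 0 and 3.02 CPM in ductal-gated cells. The 2 genes share most of their 3' ends, so the split between them is uncertain.

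In the fit, 10 of 10 members were higher in acinar-gated cells at an adjusted p under 0.05, against 12.2% of the 8499 genes tested that were higher; 14.4% were lower. The members' log2 differences ran between 2.93 for *Gm5771* and 4.07 for *Gm10334*, with a median of 3.40, against a median of -0.0037 over all genes. This count is a description, since both gates rest on genes of the acinar and ductal programs and since only 5 members, *Prss2*, *Try4*, *Try5*, *Gm10334* and *Prss3*, reached the count minimum in a ductal-gated sum. DESeq2 did not call *1810009J06Rik* (adjusted p = 0.592), and without the 5% of cells with the most UMIs neither it nor *Gm2663* passed (edgeR adjusted p = 0.107 and 0.0754). Without tumour 1 the log2 difference of *Prss2* was 2.64, and those of the members ran between 2.43 and 4.09. In that fit 518 of 7232 genes tested were higher, against 1037 of 8499 with all tumours. Without tumour 3, 4 members had enough UMIs to be tested and all 4 were called, at 3.48 to 4.02. In that fit 486 of 5868 genes tested were higher.

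**Figure D2:**
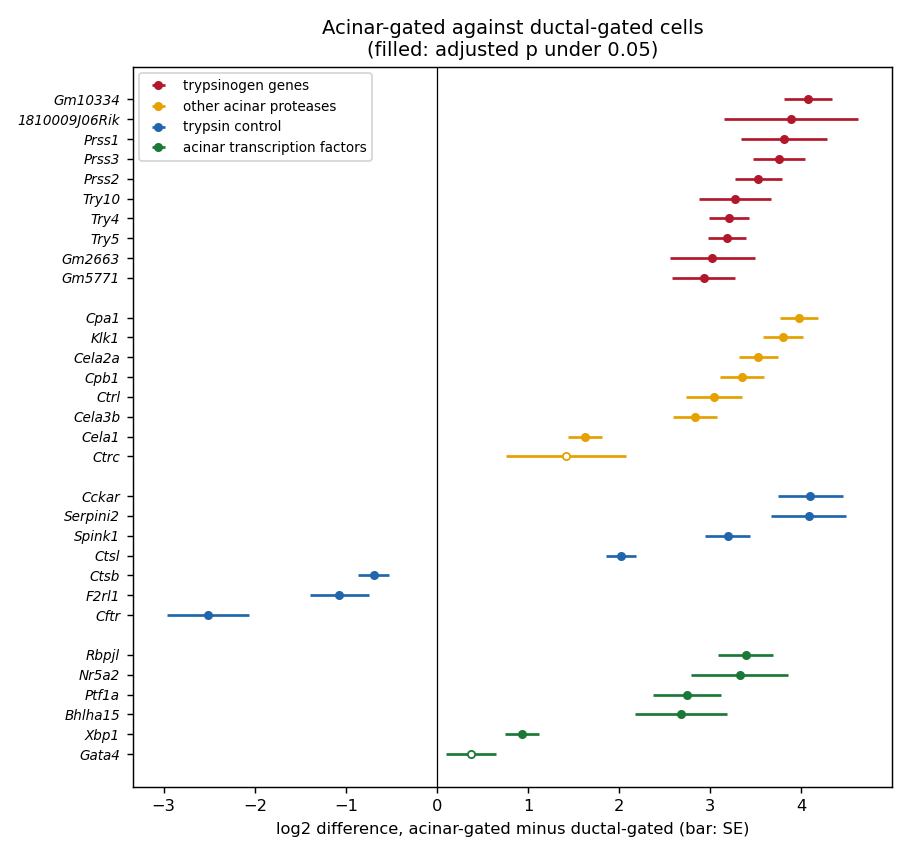
Log2 difference, acinar-gated minus ductal-gated cells, with its SE, for trypsinogen genes, other acinar proteases, genes of trypsin control and acinar transcription factors; filled points passed an adjusted p of 0.05. All 10 trypsinogen genes lie to the right of 0 beside *Cpa1* and *Cela2a*, while *Ctsb*, *F2rl1* and *Cftr* lie to the left.

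The level in acinar-gated cells was set against background RNA. Barcodes of 10 to 100 UMIs held the 10 genes at 1637, 1436 and 1972 CPM in tumours 1, 2 and 3, with a mean of 1682 ± 270 CPM (SD, n = 3). Acinar-gated cells were 4.16-fold, 1.54-fold and 3.92-fold above these barcodes. Ductal-gated cells stood at 0.185, 0.331 and 0.503 of that level, and ungated cells at 0.513, 0.263 and 1.04. In tumour 2, barcodes of 10 to 50 UMIs held 1971 CPM. This lay inside the exact Poisson limits of its acinar-gated cells, 1874 and 2592 CPM. The excess of acinar-gated cells in tumour 2 thus depended on the size range of the small barcodes. The trypsinogen level of ductal-gated cells, taken as a class, lay under the background in every tumour and is not read as expression. Single ductal-gated cells reached 6.81, 3.50 and 9.17 trypsinogen UMIs per 1000 in tumours 1, 2 and 3. A class level therefore cannot decide whether some of these cells expressed the genes. In tumours 1 and 2, 317 of 403 and 78 of 114 ductal-gated cells had no trypsinogen UMI, and in tumour 3 158 of 363. Barcodes with 1000 or more UMIs held 41.3%, 17.7% and 59.6% of all trypsinogen UMIs of their libraries and 36.9%, 15.4% and 56.8% of all UMIs. Most of the trypsinogen RNA counted in libraries 1 and 2 thus lay in barcodes under 1000 UMIs, the limit chosen here for cells. Barcodes above 100 and under 1000 UMIs held 28.9%, 50.2% and 21.7% of trypsinogen UMIs in libraries 1, 2 and 3. Those of 10 to 100 UMIs held 21.9%, 16.1% and 8.42%. Whether barcodes of the middle range were small cells was not tested. Erythroid genes went with the small barcodes, at 1769, 2589 and 3569 CPM, against 0 to 2.36 CPM in acinar-gated cells, and their part in the background level was not tested.

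After each cell was thinned to 1000 UMIs, *Prss2* was seen in 74.3%, 47.2% and 85.0% of acinar-gated cells, against 7.44%, 13.2% and 37.2% of ductal-gated cells. *Try4* was seen in 65.8%, 38.9% and 62.3%, against 9.18%, 12.3% and 29.5%, and *Try5* in 49.4%, 22.2% and 50.1%, against 9.43%, 7.89% and 24.0%. No other member was found in more than 11.3% of the acinar-gated cells of a tumour. Median depths were close, at 1727, 1284.5 and 1643 UMIs in acinar-gated cells and 1619, 1310 and 1607 UMIs in ductal-gated cells. The ductal-gated cells of tumour 3 held the gate's own acinar pair at 1668 CPM, against 483 and 873 CPM in those of tumours 1 and 2, beside their higher trypsinogen level.

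**Figure D3:**
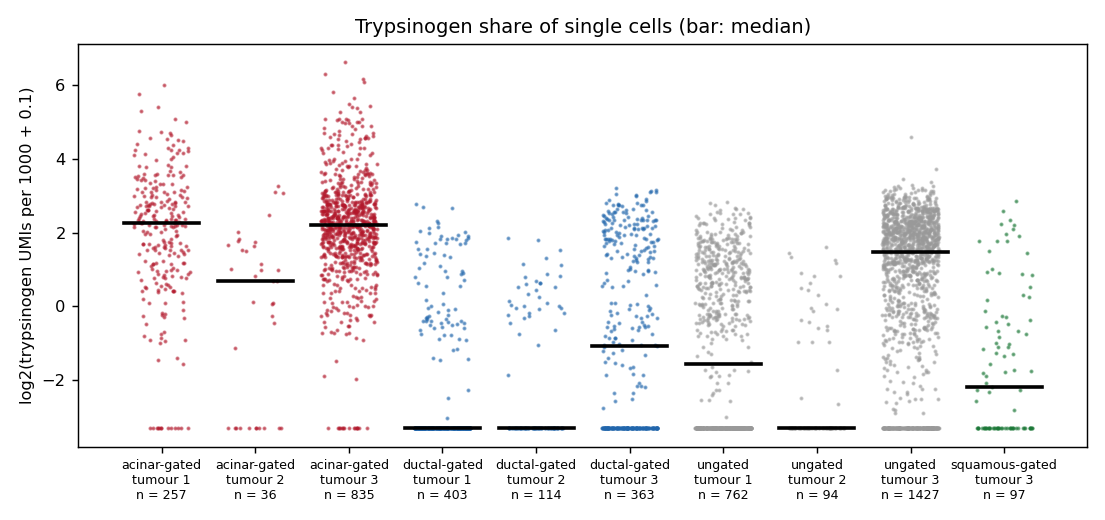
Trypsinogen UMIs per 1000 UMIs of each cell, on a log2 scale with 0.1 added, by class and tumour; each point is a cell, the bar is the median, and classes with fewer than 10 cells in a tumour are left out. Acinar-gated cells of tumours 1 and 3 have medians of 4.68 and 4.54 per 1000 and reach 64.3 and 98.9, while the medians of ductal-gated cells in tumours 1 and 2 are 0.

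Acinar-gated cells differed widely in trypsinogen content. The median cell had 4.68, 1.51 and 4.54 trypsinogen UMIs per 1000 in tumours 1, 2 and 3, and the highest cell 64.3, 9.56 and 98.9. Cells with 10 or more per 1000 numbered 51 of 257, 0 of 36 and 117 of 835, and those with 50 or more 2, 0 and 6. The 26, 4 and 84 acinar-gated cells with the most trypsinogen UMIs, about 10% of the cells, held 46.8%, 54.6% and 59.0% of the trypsinogen UMIs of acinar-gated cells. This ranking is by count, so it also reflects how many UMIs a cell had in all. The level followed the acinar gate pair. From cells under the background share of *Ctrb1* and *Clps* to cells at 8 times or more, trypsinogens stood at 384, 2109, 3048, 5855 and 18676 CPM in tumour 1 (steps at 1, 2, 4 and 8 times), and at 574, 3362, 4797, 8816 and 27731 CPM in tumour 3. In tumour 2 the same steps gave 345, 761, 1427, 2824 and 3803 CPM, the last 2 from 11 and 8 cells. Just outside the limit, at 1.5 to 2 times the background share, cells held 1826, 943 and 3684 CPM, and just inside, at 2 to 2.5 times, 2731, 527 and 3930 CPM, so the gate cuts a continuous range. Across acinar-gated cells, the summed trypsinogen UMIs had a Spearman's rho of 0.449, 0.479 and 0.381 with the acinar check list after thinning (n = 257, 36 and 835 cells, which share a library and its background).

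**Figure D4:**
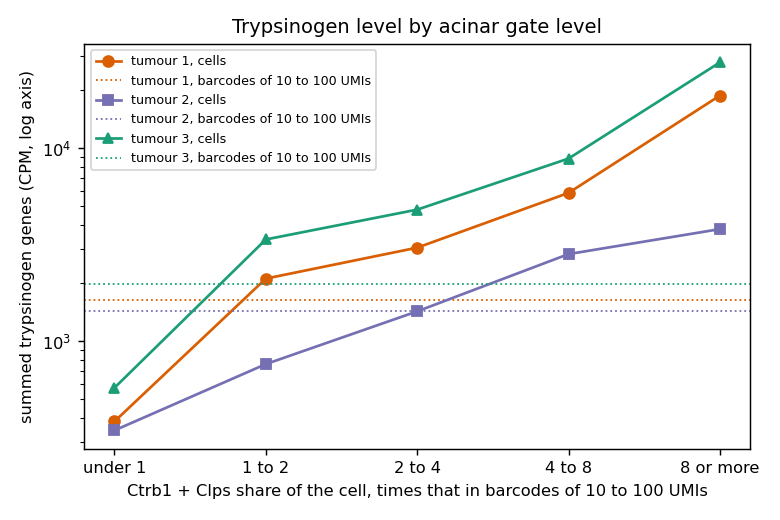
Summed trypsinogen level in CPM, on a log axis, of all kept cells by their share of *Ctrb1* and *Clps* relative to barcodes of 10 to 100 UMIs (x axis, 5 classes); lines join the classes of a tumour and dotted lines give the level in its small barcodes. The level climbs to 18676 CPM in tumour 1 and 27731 CPM in tumour 3, against 3803 CPM in tumour 2, whose last 2 classes hold 11 and 8 cells.

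The mix of members differed between tumours, and that of tumour 2 depended on which barcodes were kept. *Prss2* made up 41.5% of trypsinogen UMIs in acinar-gated cells of tumour 1, with exact Clopper-Pearson 95% limits of 39.9% and 43.1%. It made up 35.5% in tumour 2, with limits of 27.9% and 43.7%, and 54.1% in tumour 3, with limits of 53.3% and 54.8%, against 37.4%, 43.5% and 43.7% in the small barcodes of those libraries. The small barcodes of tumours 2 and 3 were alike, but the acinar-gated cells of tumour 3 lay above theirs. *Try4* made up 24.2%, 36.2% and 19.1% in acinar-gated cells, against 27.7%, 24.9% and 26.1% in small barcodes, and *Try5* 24.4%, 23.7% and 16.9% against 25.3%, 25.2% and 22.6%. With barcodes shared between libraries left in, *Prss2* made up 44.1%, 53.9% and 53.9% and *Try4* 23.2%, 22.6% and 19.2% in acinar-gated cells of tumours 1, 2 and 3. The difference between tumours 2 and 3 in *Prss2* was then gone. With rising *Ctrb1* and *Clps* share in tumour 3, *Try4* made up 20.4%, 23.6%, 22.4%, 19.5% and 14.0% of the mix. In tumour 2 its share ran the other way, at 18.8%, 19.2%, 31.6%, 35.0% and 45.2%, and in tumour 1 it was 28.9%, 29.7%, 23.7%, 29.7% and 19.3%. *Gm10334* in tumour 3 made up 3.19%, 2.80%, 2.32%, 4.03% and 8.15%. In tumour 1 *Gm10334* lay between 1.75% and 2.35% at these steps. In tumour 3, 1 cell gave 276 of the 368 *Gm10334* UMIs at the highest step.

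**Figure D5:**
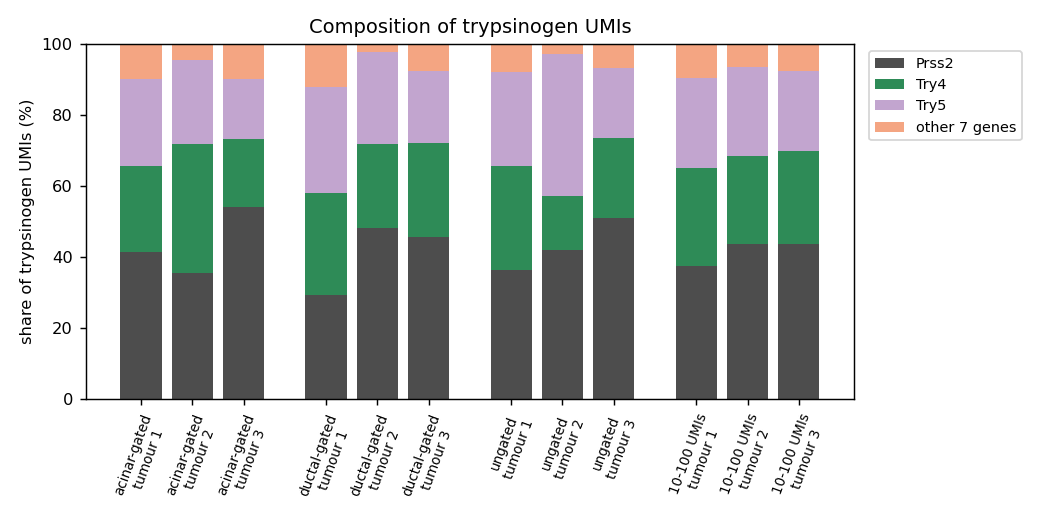
Share of *Prss2*, *Try4*, *Try5* and the other 7 genes in all trypsinogen UMIs (bars stack to 100%), in acinar-gated, ductal-gated and ungated cells and in barcodes of 10 to 100 UMIs of each tumour. *Prss2* takes 54.1% in acinar-gated cells of tumour 3, against 35.5% to 41.5% in those of tumours 1 and 2 and 37.4% to 43.7% in small barcodes; with shared barcodes left in, the acinar-gated share is 53.9% in tumours 2 and 3.

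The mix also differed between cells. Among acinar-gated cells with 20 or more trypsinogen UMIs, *Prss2* was the leading member in 30 of 52 cells of tumour 1 and 122 of 159 of tumour 3, *Try4* in 12 and 24, and *Try5* in 10 and 11. The *Prss2* share of a cell ran from 3.95% to 100% in tumour 1 and from 13.7% to 100% in tumour 3, with medians of 44.4% and 51.9%. It was 80% or more in 10 and 36 of these cells and under 20% in 11 and 6. In thinned acinar-gated cells *Prss2* and *Try4* had a rho of 0.231, 0.416 and 0.237, and *Try4* and *Try5* of 0.531, 0.210 and 0.283. Counts this sparse lower rho, and the last 300 bases of *Try4* and *Try5* are 96.3% identical. These values are therefore read neither as links between members nor as their absence. Single cells carried much of the low members. In tumour 3, 1 cell of 9221 UMIs held 276 of the 734 *Gm10334* UMIs, 93 of 409 of *Prss3* and 29 of 132 of *Gm5771*. *Gm10334* made up 37.5% of its 736 trypsinogen UMIs. Another cell, of 12576 UMIs, held 54 of 116 *Gm2663* and 40 of 56 *1810009J06Rik* UMIs. Leaving out the cell with the most UMIs of the gene, which was added with the data in view, *Gm10334* stood at 217 CPM in tumour 3 and *1810009J06Rik* at 7.59 CPM. In tumour 1, 1 cell of 4619 UMIs with 297 from trypsinogens held 191 of 934 *Try5* UMIs. In tumour 2, 1 cell of 14925 UMIs gave 21 of 54 *Prss2*, 15 of 55 *Try4* and 11 of 36 *Try5* UMIs.

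Tumour 2 stood apart in its trypsinogens more than in the other acinar proteases, though as 1 sample it allows no test. Those 11 genes, from chymotrypsinogens to carboxypeptidases, stood at 18639, 13310 and 20671 CPM in acinar-gated cells of tumours 1, 2 and 3. There were 0.365, 0.166 and 0.374 trypsinogen UMIs per UMI of these proteases, so tumours 1 and 3 were close and tumour 2 was lower. Small barcodes had 0.446, 0.4998 and 0.396. These proteases include the gate gene *Ctrb1*, so the gate itself bears on this ratio and on its distance from the small barcodes. Per UMI of the acinar check list, which holds no gate gene, the values were 0.776, 0.290 and 0.703, against 0.881, 0.923 and 0.795 in small barcodes. The value of tumour 2 rests on 36 cells and 152 trypsinogen UMIs. With the shared barcodes left in, library 2 had 105 acinar-gated barcodes, 6630 trypsinogen CPM and a ratio of 0.417 to the 11 proteases. The low values of tumour 2 thus depend on leaving shared barcodes out. Those barcodes hold much RNA counted in other libraries, so the 2 readings are not equal. Of other acinar proteases tested, 8 of 9 were higher in acinar-gated cells and 0 lower (median log2 3.24). The carboxypeptidase gene *Cpa1* had a log2 difference of 3.97 ± 0.21, the elastase gene *Cela2a* 3.53 ± 0.21 and *Cela1* 1.63 ± 0.19 (edgeR adjusted p = 7.45e-26, 3.51e-23 and 6.18e-11).

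Genes that control trypsin were read next. Of 12 listed symbols 8 were tested, 4 were higher in acinar-gated cells, 3 were lower and 1 did not pass (median log2 1.72). *Spink1*, the inhibitor stored with trypsinogen, stood at 279, 262 and 311 CPM in acinar-gated cells against 17.3, 28.0 and 49.3 CPM in ductal-gated cells (log2 3.19 ± 0.25, edgeR adjusted p = 4.89e-18). In tumour 2 a single cell gave 13 of its 18 UMIs. *Ctsl*, cathepsin L, was abundant, at 1174, 1484 and 1892 CPM against 266, 269 and 517 CPM (log2 2.02 ± 0.16, edgeR adjusted p = 3.62e-17). *Ctsb*, cathepsin B, went the other way, at 160.1, 131 and 151 CPM against 233, 224 and 257 CPM (log2 -0.70 ± 0.17, edgeR adjusted p = 9.79e-04). The acinar-gated and ductal-gated values of both genes did not overlap. *Cckar*, the cholecystokinin receptor that triggers zymogen release, rose by 4.09 ± 0.36 and the serpin gene *Serpini2* by 4.08 ± 0.41 (edgeR adjusted p = 1.07e-15 and 3.86e-13). *Serpini2* had 0 UMIs in acinar-gated cells of tumour 2. *F2rl1*, a receptor that trypsin cleaves, fell by 1.07 ± 0.32, and *Cftr*, the chloride channel of pancreatic ducts, fell by 2.51 ± 0.45 (edgeR adjusted p = 0.00806 and 6.32e-06).

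*Ctrc*, chymotrypsin C, did not follow the trypsinogens. It had 0 UMIs in the 562037 UMIs of acinar-gated cells of tumour 1 and 0 in tumour 2, and 22.2 CPM in tumour 3, where 1 cell gave 35 of 47 UMIs. Its small barcodes stood at 17.7, 19.3 and 19.4 CPM and its ductal-gated cells at 4.60, 5.60 and 4.02 CPM. The exact upper limit in acinar-gated cells of tumour 1 was 6.56 CPM, under the 17.7 CPM of the small barcodes of that library. Its log2 difference of 1.41 ± 0.66 did not pass (edgeR adjusted p = 0.107). Enteropeptidase, *Tmprss15*, which acts in the gut, had 0 UMIs in every group. *Casr* and *Chrm3*, receptors for calcium and acetylcholine, had too few UMIs to be tested, and no entry carries the symbol *Spink3*.

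Of 8 acinar transcription factor genes, 6 were tested, 5 were higher in acinar-gated cells and 0 lower (median log2 2.71). *Rbpjl* and *Ptf1a*, subunits of PTF1, rose by 3.39 ± 0.30 and 2.75 ± 0.37, and *Nr5a2*, a nuclear receptor of acinar cells, by 3.32 ± 0.53 (edgeR adjusted p = 2.33e-15, 7.75e-09 and 6.29e-07). *Bhlha15*, known as Mist1 and needed for granule organisation, rose by 2.68 ± 0.50, *Xbp1* of the secretory stress response by 0.93 ± 0.19, and *Gata4* had 0.37 ± 0.27, which did not pass (edgeR adjusted p = 1.58e-05, 6.34e-05 and 0.347). In tumour 2 *Rbpjl* stood at 102 CPM in acinar-gated cells, against 22.4 CPM in ductal-gated cells, and *Ptf1a* at 58.2 against 11.2 CPM.

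Over 11 sums of a tumour and class with 10 or more cells, the genes most like the summed trypsinogens included *Clps*, *Cel*, *Ctrb1*, *Cpb1*, *Spink1*, *Rnase1* and *Slc38a3*, with Pearson's r of 0.980 to 0.960 on log2(CPM + 10), out of 7996 genes with 100 or more UMIs. The sums share libraries, and *Clps* and *Ctrb1* formed the gate. Of the members, *Prss2*, *Try4* and *Try5* followed their own sum at 0.991, 0.983 and 0.985, and *Prss1*, *1810009J06Rik* and *Gm2663* least, at 0.707, 0.714 and 0.748, from 185, 88 and 171 UMIs.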

How the data were processed

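EpCAM-positive cells of 3 tumours were profiled with 10x Genomics 3' kits; the labels name both Version 1 and Version 3 and do not settle which applies. The deposited values are raw UMI counts per gene and barcode, with Cell Ranger 3.0.2 named in the deposited tables, per the file headers. Per the submitters' processing notes the build was mm10, and Seurat 3.1 was used at a step not stated. All 6794880 possible barcodes are listed, so the authors' cell calling is not in these tables, and the sources used here do not give the gene annotation. Gene positions and transcripts are those of GENCODE M21, matched by gene ID for all 10 members, and start regions those of RefSeq (GRCm38.p6).

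Members, gates and lists were chosen with earlier results of these data known. The text names all 10 members, the 3 fixed gene lists and the 8 genes nearest to the summed level, of which 1 is not reported here. No doublet caller was run; cells that passed the acinar and ductal gates were kept apart. Raw counts were summed per tumour and class with 10 or more cells, giving 11 sums with totals between 68743 and 3853170. A quasi-likelihood fit in edgeR 4.0.16 under R 4.3.3 (filterByExpr, TMM, tumour as a block, 4 residual degrees of freedom) covered 8499 genes; the 6 gate genes were left out. Library totals above give the depth: 1 UMI in the smallest sum is 14.5 CPM. On simulated counts for the acinar-gated against ductal-gated comparison over 8368 genes, 92% of genes changed by 1 and 100% of those changed by 2 on the log2 scale were recovered. Recovery at counts as low as those of 5 members was not tested separately. These are *1810009J06Rik*, *Gm2663*, *Prss1*, *Try10* and *Gm5771*, with 88, 171, 185, 263 and 293 UMIs over the 11 sums. All classes within 1 tumour were taken from that mouse, which pairs them by design. Deviations of acinar-gated and ductal-gated sums from their class means correlated at 0.193, 0.0928 and 0.526 in tumours 1, 2 and 3. The labels do not say whether tumours came from separate donors. The p-values rest on the spread left among the 11 sums after tumour and class were fitted. That spread is how class differences vary from tumour to tumour, while differences in level between whole tumours are taken up by the block. The double-gated and squamous-gated classes have 1 sum each and add nothing to it. Intervals are exact Poisson or Clopper-Pearson intervals at 95% (Python 3.11.15, scipy 1.17.1), also where a gene had 0. Transcript ends were aligned with Biopython 1.88. Alternatives were gates at 1 and 4 times the background, no home-library filter, 2000 UMIs, fewer large cells, each tumour left out, DESeq2 1.42.0, its size factors in edgeR, no count filter, no block, and the 2 classes alone.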

Additional observations from a re-analysis of the deposited data

How the results depend on the processing

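Over 13 alternatives, 120 log2 differences of single trypsinogen genes could be computed. Of these, 120 kept their direction and 117 their call, and they ranged between 1.57 and 7.30. The 3 exceptions are the *Gm2663* and *1810009J06Rik* values given above. Every alternative used gates that rest on acinar and ductal genes, so the kept direction is a description and not a test. In the main setting 5 members lay under the count minimum in every ductal-gated sum. With gates at 4 times the background the log2 differences ran between 5.30 and 7.30, with 2000 or more UMIs between 4.30 and 7.28, and the level in ductal-gated cells was 187 CPM with the first. Small barcodes of 10 to 50 UMIs held a mean of 2232 CPM over the tumours. The number of genes higher in acinar-gated cells was 508 with DESeq2 and 572 with no tumour block in the pairing of classes, against 1037. Leaving out each tumour in turn gave 486 to 1153 genes higher and 698 to 1231 lower, among 5868 to 9302 genes tested. Of the trypsinogen genes 4 to 10 were then higher, and the low end follows from the 4 members tested without tumour 3. Without the block 10 members were still called, beside 572 of all 8499 genes tested that were higher. A further 10 values could not be fitted because the member fell under the count minimum. Depth limits tumour 2 most, where members with 0 UMIs in acinar-gated cells have an exact Poisson upper limit of 53.7 CPM.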
